A study of Mus musculus with 20 samples.

Results

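The genes described here encode proteins of the fat cell's lipid droplet: the coat proteins Plin1, Plin2, Plin4 and Cidec, the droplet-forming protein Fitm2, the lipases Pnpla2, Lipe and Mgll, and the regulators Abhd5 and G0s2. These 10 genes were taken by name, and a probe set counted only where the probe annotation gave it a single gene symbol. Of the 10, 9 had such a probe set, and all 9 passed the filter on low values, among 10603 genes with a probe set that passed. Plin1 had no such probe set in the annotation used and was not analysed here. Each gene was represented by its probe set with the highest mean log2 intensity over the 20 arrays, out of 16 probe sets carrying a member's symbol alone.

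RNA from visceral fat (mesenteric by the paper, with no depot in the labels) of female C57BL/6J mice was hybridised to Affymetrix mouse arrays covering the genome. There was 1 array per sample, each sample was taken as 1 mouse, and 4 groups held 5 mice each. The control non pregnant group received a diet with 10% fat and the HF non pregnant group a high fat (HF) diet with 58% fat. Control pregnant and HF pregnant mice received the same diets, started several weeks before mating, and were studied in late pregnancy (E18.5). For non pregnant mice, too, the sample labels enter E18.5 under age. No genetic alteration or drug treatment was part of the design, and by the methods the mice were sedated before they were killed. The tissue was taken whole, so a lower value can come from fewer fat cells or from less RNA in each, which cannot be told apart here. Fat cell markers were high: Adipoq, the gene of adiponectin, had intensities of at least 14335.91 on all 20 arrays. Of 5 measured brown fat markers, Ucp1 and Dio2 were above an intensity of 100 on 0 arrays, Elovl3 on 1, Cox7a1 on 11 and Cox8b on all 20.

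A fat cell stores triglyceride in a droplet wrapped by perilipins, and Cidec lets droplets fuse into a single large one. Between meals the triglyceride is cut stepwise: Pnpla2 (ATGL) removes the first fatty acid, Lipe (hormone-sensitive lipase) the next and Mgll (monoglyceride lipase) the last, leaving glycerol. Pnpla2 works at full rate only with its co-activator Abhd5 (CGI-58), which perilipin holds at the droplet until the cell is stimulated, and G0s2 inhibits Pnpla2 by binding to it. Several of these genes are known targets of PPARγ, a nuclear receptor that pairs with RXR and recognises direct repeats of the letters AGGTCA.

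The promoters of the members were searched on both strands for these 6 letters, because these genes varied together from mouse to mouse. The windows ran from 250 bases before to 50 bases after each RefSeq start on GRCm38.p6. The letters AGGTCA were found in 16.3% of 32851 mouse promoters of this length. Of the 10 members, some with 2 windows, 2 held them, which is not unusual beside that share. These were Plin2 and Abhd5, each with 1 match in the reverse orientation. Counted from the start at 0, the match began at position -218 in Plin2 and at -69 in Abhd5. These 2 windows are shown with the matched letters in capitals. By the probe sets that represent the genes, Abhd5 and Plin2 also had the lowest p-values for the diet averaged over pregnancy states (limma, unadjusted p = 0.00539 and 0.00584). That order depended on the probe set. Another Mgll probe set (1453836_a_at) had a lower value, 0.00402, and neither Mgll window held these letters. The other Abhd5 probe set (1417566_at) had 0.0342. A link between the letters and the diet was not tested.
Plin2, chr4:86670010-86670309, minus strand: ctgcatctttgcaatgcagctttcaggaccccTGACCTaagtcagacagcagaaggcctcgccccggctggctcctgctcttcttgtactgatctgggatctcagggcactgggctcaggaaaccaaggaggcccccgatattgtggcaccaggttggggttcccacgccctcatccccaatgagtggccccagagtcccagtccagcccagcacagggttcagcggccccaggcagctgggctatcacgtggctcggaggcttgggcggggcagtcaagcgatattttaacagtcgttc
Abhd5, chr9:122351366-122351665, plus strand: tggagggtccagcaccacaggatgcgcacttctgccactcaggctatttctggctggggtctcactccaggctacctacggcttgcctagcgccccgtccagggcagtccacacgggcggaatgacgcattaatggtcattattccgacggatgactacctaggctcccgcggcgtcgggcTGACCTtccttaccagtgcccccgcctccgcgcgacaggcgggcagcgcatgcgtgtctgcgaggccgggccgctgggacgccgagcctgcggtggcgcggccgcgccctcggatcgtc
The letters TTNNGNAA, a loose form of the C/EBP site, stood in 40.7% of all promoters, and here in those of Plin1 and Cidec. The forkhead letters GTAAACA stood in 3.65% of all promoters, and here in 1 of the 2 promoters each of Lipe and Mgll. A match in such a window is a description of its letters, and says nothing of binding in these mice.

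The droplet genes were strongly expressed in every mouse, and the mice of different groups overlapped for all 9. No member passed the test (limma, adjusted p under 0.05 over 19802 probe sets) in any of the 7 comparisons made, namely diet in either state, pregnancy on either diet, the interaction of diet and pregnancy, and the averages over both. Means lay lower on the HF diet for most members, most clearly for Abhd5, Plin2 and Mgll, with Plin4 as an exception.

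**Figure D1:**
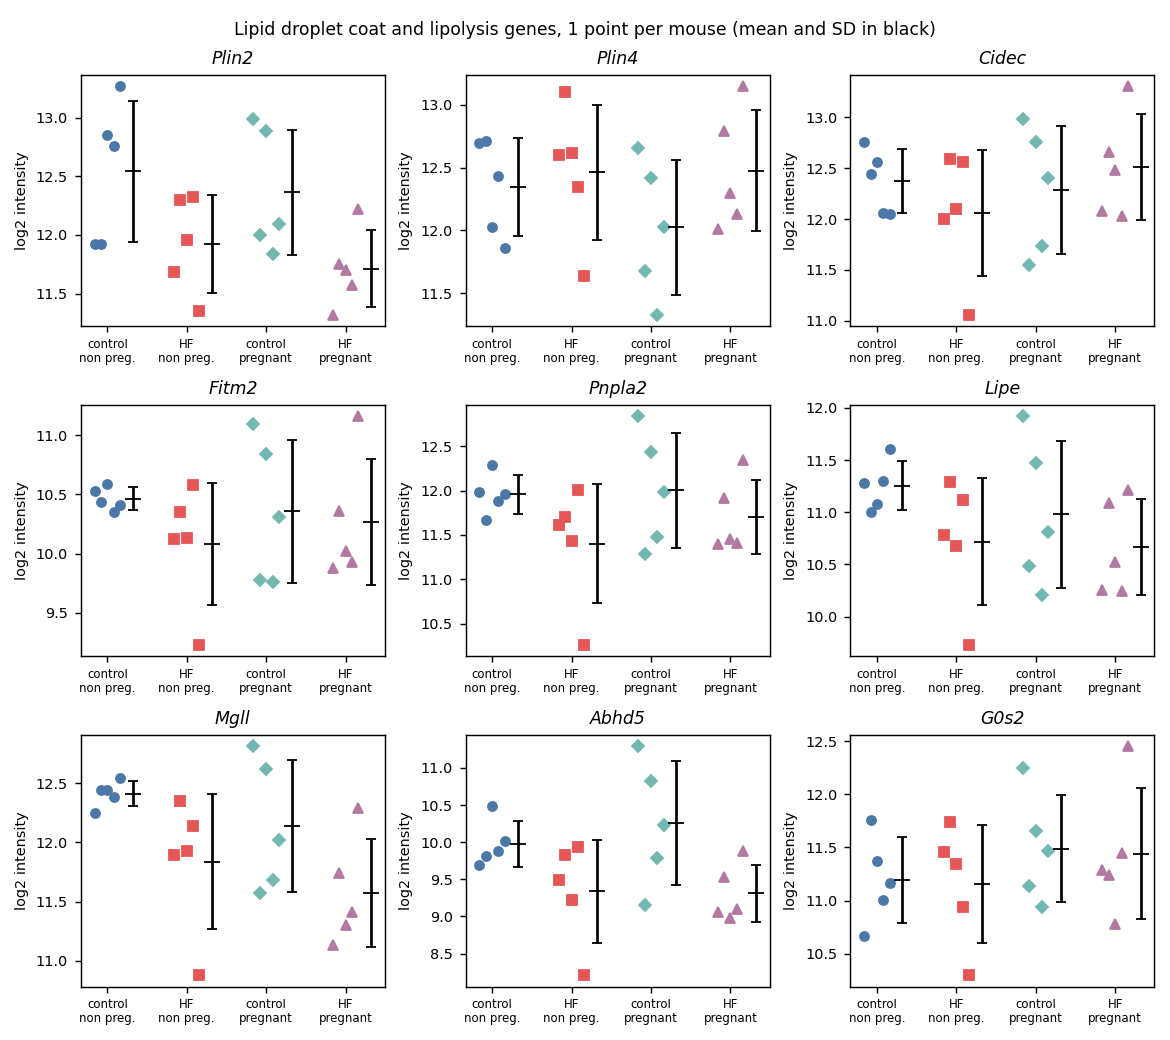
Log2 intensity (vertical axes, scaled separately for each gene) of the 9 genes in the 4 groups, each mouse as a point, and black bars for the group mean with its SD (5 mice). The groups overlap for every gene, and HF non pregnant mouse 5 is the lowest point of its group in all 9 panels.

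Among the coat proteins, Plin2 (probe set 1448318_at), a perilipin found on droplets of many cell types, was higher in mice of the control diet. Its log2 intensity was 11.92, 11.92, 12.85, 12.76 and 13.27 in control non pregnant mice 1 to 5. In HF non pregnant mice it was 11.68, 12.30, 11.96, 12.32 and 11.35, so that 3 control mice lay above all HF mice of that state and the other control mice within their range. In control pregnant mice the values were 12.99, 12.00, 12.89, 11.84 and 12.09, and in HF pregnant mice 11.32, 11.75, 11.70, 11.57 and 12.22. HF pregnant mouse 5 alone reached into the range of the control pregnant mice. The mean was 1.54-fold lower on the HF diet in non pregnant mice (log2 fold change -0.62, 95% confidence interval -1.23 to -0.02, adjusted p = 0.281) and 1.57-fold lower in pregnant mice (log2 fold change -0.65, interval -1.26 to -0.05, adjusted p = 0.356).

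Plin4 (1418595_at), a perilipin abundant in white fat, did not share this order. Its log2 intensity was 12.70, 12.71, 12.03, 12.43 and 11.86 in control non pregnant mice and 12.60, 13.10, 12.62, 12.35 and 11.64 in HF non pregnant mice. It was 12.66, 11.68, 12.42, 11.33 and 12.03 in control pregnant mice and 12.01, 12.79, 12.30, 12.13 and 13.15 in HF pregnant mice. Control pregnant mouse 4 was the lowest of the 20 mice and HF pregnant mouse 5 the highest. Within pregnancy its mean was 1.37-fold higher on the HF diet (log2 fold change 0.45, interval -0.16 to 1.06, adjusted p = 0.497).

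Cidec (1452260_at), which concentrates at contacts between droplets, had log2 intensities of 12.76, 12.44, 12.56, 12.06 and 12.05 in control non pregnant mice and of 12.00, 12.59, 12.10, 12.56 and 11.06 in HF non pregnant mice. In control pregnant mice they were 12.99, 11.55, 12.76, 11.74 and 12.40, and in HF pregnant mice 12.08, 12.66, 12.48, 12.03 and 13.31. The highest and the lowest of the 20 values both came from HF mice, HF pregnant mouse 5 and HF non pregnant mouse 5. The HF diet shifted the mean by -0.32 on the log2 scale in non pregnant mice (interval -0.99 to 0.36) and by 0.22 in pregnant mice (interval -0.45 to 0.89). Fitm2 (1454935_at), a protein of the endoplasmic reticulum needed to bud droplets, had a median log2 intensity of 10.44 (10.35 to 10.59) in control non pregnant and 10.31 (9.76 to 11.09) in control pregnant mice. On the HF diet it was 10.13 (9.23 to 10.58) in non pregnant and 10.02 (9.88 to 11.16) in pregnant mice. Its SD was 0.09 in the control non pregnant group and 0.51 to 0.61 in the others.

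Among the lipases, Pnpla2 (1428143_a_at) had log2 intensities of 11.99, 11.67, 12.29, 11.88 and 11.96 in control non pregnant mice and 11.61, 11.70, 11.43, 12.01 and 10.26 in HF non pregnant mice. They were 12.84, 11.28, 12.44, 11.48 and 11.99 in control pregnant mice and 11.40, 11.92, 11.45, 11.41 and 12.34 in HF pregnant mice. HF non pregnant mouse 5 stood far below the other mice of its group, and control pregnant mice 1 and 3 were the highest of all 20. The diet difference of the means was -0.56 in non pregnant mice (interval -1.22 to 0.10, adjusted p = 0.288) and -0.31 in pregnant mice (interval -0.96 to 0.35, adjusted p = 0.642). Lipe (1422820_at) had a median of 11.28 (11.00 to 11.61) in control non pregnant and 10.81 (10.21 to 11.92) in control pregnant mice, and on the HF diet of 10.78 (9.73 to 11.29) and 10.52 (10.25 to 11.21), respectively. The corresponding diet differences of Lipe were -0.53 (interval -1.20 to 0.13) and -0.32 (interval -0.98 to 0.35).

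Mgll (1426785_s_at) was the most even member in control non pregnant mice after Fitm2, at 12.25, 12.44, 12.44, 12.38 and 12.54. In HF non pregnant mice its log2 intensity was 11.89, 12.35, 11.93, 12.14 and 10.88, with only mouse 2 inside the control range. In control pregnant mice it was 12.81, 11.57, 12.62, 11.68 and 12.02, and in HF pregnant mice 11.13, 11.74, 11.30, 11.41 and 12.29. The mean was 1.49-fold lower on the HF diet in non pregnant mice (log2 fold change -0.57, interval -1.15 to 0.01, adjusted p = 0.281) and 1.48-fold lower in pregnant mice (-0.57, interval -1.15 to 0.01, adjusted p = 0.397). Its other 2 probe sets that passed the filter gave -0.42 and -0.62 in non pregnant mice and -0.59 and -0.58 in pregnant mice.

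Of the regulators of Pnpla2, the co-activator Abhd5 (1417565_at) ranged most widely of all members, 8.49-fold between the lowest and highest mouse. Its log2 intensity was 9.69, 9.81, 10.49, 9.88 and 10.02 in control non pregnant mice and 9.49, 9.83, 9.22, 9.93 and 8.21 in HF non pregnant mice. It was 11.29, 9.16, 10.82, 9.79 and 10.23 in control pregnant mice and 9.06, 9.53, 8.98, 9.10 and 9.88 in HF pregnant mice. Control pregnant mice 1 and 3 stood above every other mouse, and control pregnant mice 2 and 4 lay inside the HF pregnant range. The mean was 1.93-fold lower on the HF diet in pregnant mice (log2 fold change -0.95, SE 0.36, interval -1.70 to -0.20, adjusted p = 0.287) and 1.56-fold lower in non pregnant mice (-0.64, interval -1.39 to 0.11, adjusted p = 0.286). Its other probe set that passed the filter gave -0.66 and -0.67, respectively.

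The inhibitor G0s2 (1448700_at) showed almost no difference of means with the diet, -0.04 in non pregnant mice (interval -0.70 to 0.62) and -0.05 in pregnant mice (interval -0.71 to 0.61). Its median log2 intensity was 11.17 (10.67 to 11.76) in control non pregnant and 11.47 (10.94 to 12.25) in control pregnant mice, and on the HF diet 11.34 (10.30 to 11.74) and 11.29 (10.78 to 12.45), respectively. The 4 groups covered much the same range.

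By the order of the group means, both control groups stood above both HF groups for 6 of the 9 genes, Plin2, Fitm2, Pnpla2, Lipe, Mgll and Abhd5. No neighbouring groups in any of these orders were separated, since the mice of any 2 groups compared overlapped for all 9 genes.

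In non pregnant mice, 8 of the 9 genes had a lower mean on the HF diet, with a median log2 fold change of -0.53 against 0.01 over all probe sets. None passed the adjusted threshold, and neither did any other probe set (0% of 19802). At an unadjusted p under 0.05, 1 of the 9 genes (Plin2) was called, beside 17.7% of all probe sets, and in 0 of the 9 were the groups free of overlap, beside 2.19% of all. With a 1.5-fold change required as well, Plin2 was still called, beside 3.91% of all probe sets. With arrays weighted by their quality, 5 of the 9 were called, beside 37.8% of all, but HF non pregnant mouse 3 then carried a weight of 11.3 where the lowest array had 0.233. In the unweighted fit, most falls were smaller without HF non pregnant mouse 5. Abhd5 then stood at -0.36, Mgll at -0.33, Lipe at -0.29, Pnpla2 at -0.27, Fitm2 at -0.17 and Cidec at -0.06. G0s2 stood at 0.18 and Plin4 at 0.32. Plin2 stayed at -0.44 or lower whichever array was left out.

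In pregnant mice, 7 of the 9 genes had a lower mean on the HF diet, with a median of -0.31 against 0.05 over all probe sets. None passed the adjusted threshold, as against 0.192% of all probe sets. Plin2 and Abhd5 had an unadjusted p under 0.05, beside 12.8% of all probe sets, and the groups overlapped for all 9 genes, whereas they did not for 3.51% of all. Both genes also met the 1.5-fold requirement, beside 2.83% of all. With arrays weighted, 2 of the 9 were called beside 6.89% of all.

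Averaged over pregnancy states, the means on the HF diet were lower for 8 of the 9 genes. The log2 fold change was -0.80 for Abhd5 (interval -1.32 to -0.27, adjusted p = 0.0869), -0.64 for Plin2 (-1.06 to -0.21, adjusted p = 0.0882) and -0.57 for Mgll (-0.98 to -0.16, adjusted p = 0.0989). Pnpla2 and Lipe followed at -0.43 and -0.42, Fitm2 at -0.23, Cidec at -0.05 and G0s2 at -0.04, and Plin4 stood at 0.28. The median was -0.42, against 0.04 over all probe sets, and 0 of 9 passed, beside 1.24% of all probe sets. The first 3 genes had an unadjusted p under 0.05, beside 29.6% of all, so that a share of this size was not unusual on these arrays, and 2 of the 9 genes met the 1.5-fold requirement as well, beside 3.17%. Whether a gene passed depended on single arrays. Control pregnant mouse 2 had the strongest signal of 6 pancreatic acinar genes (6.12 above their mean over mice, on the log2 scale), and without it Abhd5 (-0.93, adjusted p = 0.0243), Mgll (-0.64, adjusted p = 0.0351) and Plin2 (-0.68, adjusted p = 0.0367) passed, beside 21.8% of all probe sets. Without this mouse and control non pregnant mouse 4, the next highest at 5.73, Abhd5 alone passed (-0.94, adjusted p = 0.0413), beside 10.2% of all. Control pregnant mouse 2 differed in other ways too. Its mean log2 deviation was 1.58 for 8 B and T cell markers, -1.57 for 4 mesothelium markers and -0.46 for the members. Which of these bore on the calls was not tested. With arrays weighted, 5 of the 9 passed, beside 46.1% of all.

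**Figure D2:**
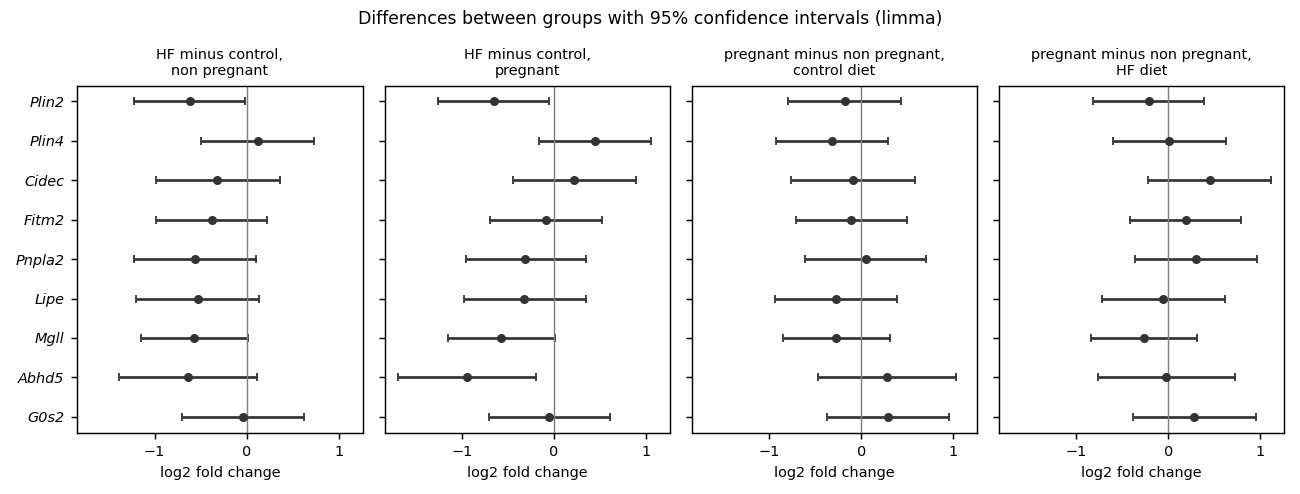
Log2 fold change (horizontal axes) of each gene in the 4 comparisons of 2 groups, as points with 95% confidence intervals from limma (5 mice per group). Only the intervals of Plin2 on the HF diet in either state and of Abhd5 on the HF diet in pregnant mice leave out 0, before adjustment over all probe sets.

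Pregnancy was accompanied by smaller differences, in both directions. On the control diet, 6 of the 9 genes had a lower mean in pregnant mice, with a median of -0.11 against 0 over all probe sets, and the values ran from -0.32 for Plin4 to 0.29 for G0s2. None passed, either after adjustment (0% of all probe sets) or at an unadjusted p under 0.05 (2.9% of all), and no groups were free of overlap (0.217% of all). On the HF diet the median was 0.01 against -0.01 over all probe sets, with Cidec highest at 0.45 (interval -0.22 to 1.12) and Mgll lowest at -0.26 (interval -0.84 to 0.31). The counts were again 0 of 9 after adjustment, beside 0.0252% of all probe sets, 0 of 9 unadjusted, beside 4.66%, and 0 of 9 without overlap, beside 1.53%. With arrays weighted, Mgll was called (-0.53, adjusted p = 0.012), beside 13.5% of all probe sets.

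Averaged over diets, pregnancy gave no call, beside 0.0101% of all probe sets, and no unadjusted p under 0.05, beside 4.59%. Among the probe sets that represent the genes, the extreme values were 0.29 for G0s2 and -0.27 for Mgll. Other probe sets went further. That of Abhd5 (1417566_at) gave 0.51 (interval -0.1 to 1.12), and 0.51 on either diet, above the highest values given for each diet. Those of Mgll gave -0.28 and -0.31. With arrays weighted, Mgll was called (-0.44, adjusted p = 0.0254), beside 8.62% of all. The interaction, the effect of pregnancy on the HF diet minus that on the control diet, was largest for Cidec at 0.54 (interval -0.41 to 1.49, adjusted p = 0.933), followed by Plin4 at 0.33 and Abhd5 at -0.31. None passed, beside 0% of all probe sets, and none had an unadjusted p under 0.05, beside 3.08%. The intervals of these 3 genes reached 1.49, 1.20 and -1.36, respectively, beyond a log2 difference of 1. For Abhd5 the value depended on the probe set, as 1417566_at gave 0.01 for the interaction (interval -1.21 to 1.23).

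The members varied more between mice than most genes on the arrays. Their SD within groups was 0.46 to 0.60 on the log2 scale, with a median of 0.52, against 0.23 over all probe sets that passed the filter. The 4 groups accounted for 8.76% (G0s2) to 37.4% (Plin2) of a gene's variance over the 20 mice, with a median of 19.5% against 21.7% over all probe sets. The fold range over the 20 mice ran from 3.52 for Plin4 to 8.49 for Abhd5.

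Much of this variation was common to the members. HF non pregnant mouse 5 had the lowest value of all 20 mice in 7 of the 9 genes and was among the lowest 3 in all 9. Control pregnant mouse 1 was the highest in 4 genes and among the highest 3 in 8, and HF pregnant mouse 5 was the highest in 4. Control pregnant mice 1 and 3 lay above mice 2 and 4 of the same group for every member.

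**Figure D3:**
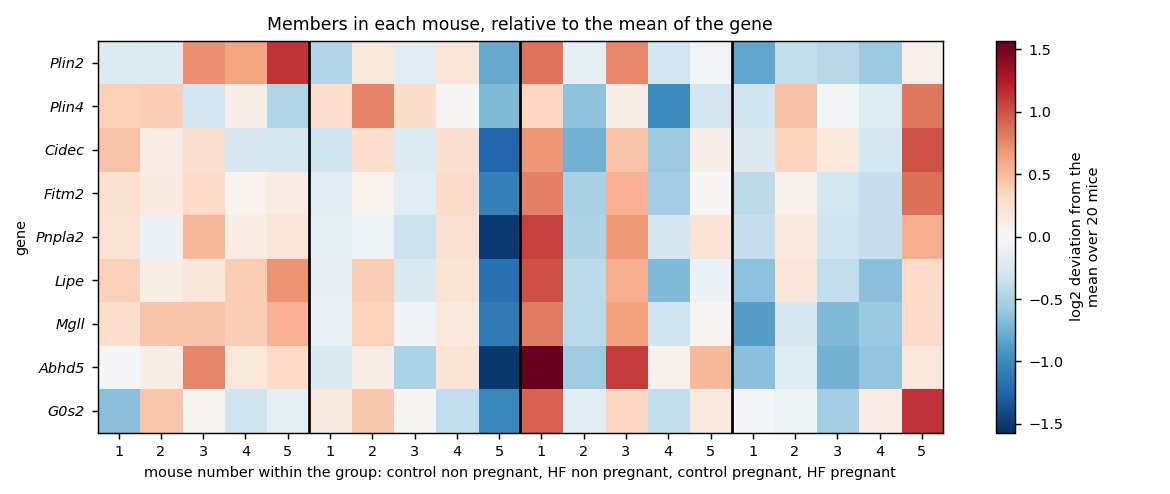
Deviation of each gene's log2 intensity from its mean over the 20 mice (red higher, blue lower), with genes as rows and mice as columns, 5 per group between the black lines. Columns are mostly of a single colour, such as HF non pregnant mouse 5 (blue) and control pregnant mouse 1 (red).

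Over the 20 mice, the correlation between the genes of the 36 pairs ran from 0.13 (Plin2 and Plin4) to 0.94 (Fitm2 and Pnpla2), with a median of 0.72. With the group means taken away it ran from 0.38 to 0.97, with a median of 0.82, and it was 0.9 or more in 11 pairs. The points share an array, so its quality and its mixture of cells enter both genes of a pair. The perilipins Plin2 and Plin4 were the least alike pair by both measures.

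For each member the genes most like it were sought among 10594 other genes, by Pearson's r over the 20 arrays. Pnpla2 was followed most closely by Hibch (0.98) and Decr1 (0.97), mitochondrial enzymes of valine and fatty acid breakdown, and by C1qtnf12 (0.97). Lipe was followed by Cebpa (0.97), a transcription factor of fat cell differentiation, then by Ctdspl (0.96) and Hsdl2 (0.95), and Cidec by L3hypdh and the insulin receptor gene Insr (0.96 each) and by Pde3b (0.95), which breaks down cAMP when insulin acts. Mgll was followed by Auh, Mfsd8 and Hagh (0.98 each), Abhd5 by Pcca, Ndufb3 and Cyb5r3 (0.97 each) and Fitm2 by Rab34 (0.97), Pgrmc1 and Cluh (0.96 each). Plin2 was closest to 2010003K11Rik and Snx10 (0.97 each) and Mrpl16 (0.96), whereas the values were lower for Plin4 (Sox17 at 0.93, Ltbp3 and Nbeal1 at 0.91 each) and G0s2 (Prune1 and Slc25a25 at 0.89 each, Focad at 0.88). With group means taken away, the closest genes were 2010003K11Rik for Plin2 (0.98), Sox17 for Plin4 (0.96), Kyat3 for Cidec (0.97), Pgrmc1 for Fitm2 (0.98), Decr1 for Pnpla2 (0.98), Cebpa for Lipe (0.96), Kctd12b for Mgll (0.99), Btd for Abhd5 (0.98) and Lox for G0s2 (0.93).

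Markers of some other cells varied with the members or against them, and those of others did so little. The mean of the 9 genes in a mouse correlated with that of 8 markers of B and T cells, of 10 listed. Over the 20 mice r was -0.82 (Spearman's rho = -0.83), and -0.81 without the 2 mice farthest from the median of these markers. With group means taken away and the 4 groups pooled, r was -0.80. This inverse relation was not seen in control non pregnant mice alone. There the markers' mean log2 deviation ran from -1.99 to 0.68, while that of the members stayed between 0.11 and 0.33 and did not fall. The summed intensity of the 8 markers ran from 1025 to 6526 in control non pregnant mice and in control pregnant mice from 748 to 12579. On the HF diet it ran from 2454 to 19135 without and from 1117 to 8953 with pregnancy. The mean log2 deviation of the 8 markers was -0.72 in control and 0.67 in HF non pregnant mice, and -0.25 in control and 0.30 in HF pregnant mice, so that it was higher on the HF diet in both states while the members' means were mostly lower. For the diet averaged over states all 8 markers had a positive log2 fold change, with a median of 1.19 for 4 B cell and 0.89 for 4 T cell markers, and none passed. Of the 8 markers, Cd22 and Cd3e were above an intensity of 100 on all 20 arrays. The dimmest, Cd79a, was above 100 on 12 of 20, with a lowest value of 26.46, and Cd3g on 16, with a lowest value of 33.3. HF non pregnant mouse 5, lowest for the members at -1.13 from their mean, was the highest for these markers at 2.05, and control pregnant mouse 1, highest for the members at 0.90, was the lowest at -2.46. The members correlated at r = 0.85 with 5 fat cell markers, at r = 0.68 with 5 brown fat markers (0.63 within groups) and at r = -0.46 with 8 macrophage markers. Without the 2 mice farthest from the median of the macrophage markers, that value was -0.24. For mesothelium r was 0.44, and 0.01 without the 2 mice farthest for its markers. It was 0.21 for endothelium, -0.14 for smooth muscle, -0.16 for mammary epithelium and 0 for pancreatic acinar genes (Spearman's rho = 0.48). Within groups r was 0.49 for endothelium, 0.47 for mesothelium and -0.39 for macrophages. In the same way it was -0.14 for smooth muscle, -0.29 for mammary epithelium and -0.17 for pancreatic acinar genes. The 2 brown fat markers that passed the filter, Cox8b and Cox7a1, had a median log2 fold change of -0.78 for the diet average, and their part in the members' differences was not tested. Lymph nodes lie within mesenteric fat, and the study's methods state that visible ones were removed. The part of lymphoid tissue in the differences between groups was not tested.

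**Figure D4:**
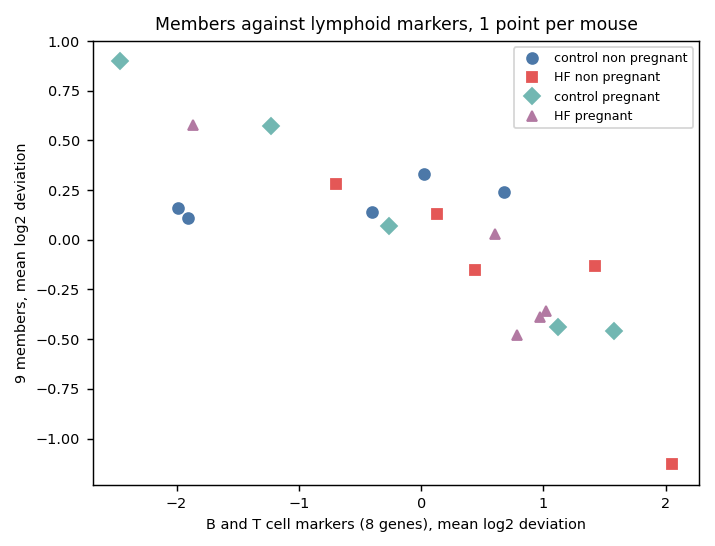
Mean log2 deviation of the 9 genes (vertical axis) against that of 8 B and T cell markers (horizontal axis), 1 point per mouse, with groups by colour and shape. Over all mice the points fall from control pregnant mouse 1 at the upper left to HF non pregnant mouse 5 at the lower right. The groups are mixed along the line, but the points of control non pregnant mice alone do not fall.

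By gene, among 24 relations of this kind that were computed, the correlation with the lymphoid markers over all 20 mice was strongest for Fitm2 (-0.84) and Cidec (-0.81) and weakest for Plin2 (-0.47). Within groups it was strongest for Plin4 (-0.88), then Cidec (-0.87) and Fitm2 (-0.83), and again weakest for Plin2 (-0.35). With the marker level as a covariate, an alternative chosen after the data were seen, the diet differences of Cidec, Fitm2 and G0s2 averaged over the states changed sign, to 0.30, 0.06 and 0.23. With this covariate Plin4 passed for the diet average (0.60, adjusted p = 0.0222), beside 0.601% of all probe sets, and it was the only member that did.

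Of 15 measured genes of 16 further droplet proteins, 1 fell and none rose on the HF diet averaged over states, and none passed in the other comparisons. The median of these genes for the diet average was -0.10, against 0.04 over all probe sets, of which 1.24% were called. The gene that fell was Cidea, a relative of Cidec typical of brown and beige fat. Its log2 intensity was 8.59, 7.47, 9.30, 9.94 and 10.17 in control non pregnant mice, 6.34, 7.21, 6.85, 9.44 and 6.17 in HF non pregnant mice, 9.51, 8.71, 9.15, 7.58 and 8.37 in control pregnant mice and 6.45, 5.88, 6.93, 6.21 and 6.99 in HF pregnant mice. The pregnant groups did not overlap, as was so for 3.51% of all probe sets, and in non pregnant mice HF mouse 4 lay inside the control range. Cidea fell by 2.03 (log2, interval -2.88 to -1.18, adjusted p = 0.0249), and this call was lost when any 1 of 11 of the 20 arrays was left out (adjusted p from 0.000183 to 0.0865 over all alternatives). The measured brown fat markers Cox8b and Cox7a1 had log2 fold changes of -0.86 (adjusted p = 0.0989) and -0.71 (adjusted p = 0.0663) in the same comparison, and their part in it was not tested. The other droplet genes of interest were not called for the diet average: Bscl2 (seipin, which shapes nascent droplets) at -0.51, Plin3 at -0.15, the muscle-type perilipin Plin5 at -0.10 and Hilpda, an inhibitor of Pnpla2, at 0.24.

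Of 15 measured genes of the hormonal control of lipolysis, of 20 listed, none passed in any comparison. Their median for the diet average was -0.15, against 0.04 over all probe sets. Pde3b stood at -0.05 (interval -0.36 to 0.25) there. The β3-adrenergic receptor gene Adrb3 was not analysed here. Of 8 measured genes of other lipases and of the handling of their products, of 10 listed, Fabp5, a fatty acid carrier, fell on the HF diet. The median of the 8 for the diet average was -0.47, against 0.04 over all probe sets. Fabp5 was 13.65, 13.18, 13.60, 12.74 and 12.97 in control pregnant mice and 11.47, 11.66, 11.55, 11.89 and 11.51 in HF pregnant mice, without overlap, as for 3.51% of all probe sets. Fabp5 fell by 1.61 in pregnant mice (log2, interval -2.13 to -1.09, adjusted p = 0.00624), where 0.192% of all probe sets were called. Averaged over states it fell by 1.12 (adjusted p = 0.00592), beside calls for 1.24% of all. Both calls of Fabp5 stood with every array left out in turn. The related carrier Fabp4 differed by only -0.11 on average (interval -0.23 to 0.01), the glycerol channel Aqp7 by -0.43 and the carboxylesterase Ces1d by -0.11, none of which passed.

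Of 8 regulators of fat cell genes, all measured, Foxo1, a transcription factor that insulin keeps out of the nucleus and that is known to raise Pnpla2, rose on the HF diet averaged over states by 0.33 (interval 0.16 to 0.49, adjusted p = 0.0491). The median of the 8 was -0.16, against 0.04 over all probe sets, of which 1.24% were called. The call of Foxo1 was lost when any 1 of 13 arrays was left out (adjusted p from 0.000228 to 0.119 over all alternatives). Over the 20 mice the mean of the regulators as a list correlated with that of the members at r = 0.97. The value was 0.96 for the further droplet genes, 0.94 for the hormonal control list and 0.85 for the other lipases. A high value was thus not particular to the regulators, and their part in the members' variation was not tested.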

How the data were processed

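Visceral fat RNA of 20 mice (4 groups of 5) was hybridised to Affymetrix arrays. Per the labels and the study's methods, the authors normalised the arrays by RMA in affy (R 2.8.0) and deposited linear intensity values for 45101 probe sets. The 64 control probe sets were left out, log2 of the deposited intensities was taken, and probe sets above 100 on at least 5 of the 20 arrays (19802, or 44.0%) were tested. The number of arrays limits the precision. Labels name Trizol and the methods a column kit for the RNA, and no batch is given. The 5 samples of a group are mice by the methods, numbered in the titles.

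Group means were fitted to all 20 arrays in limma 3.58.1 (R 4.3.3) without covariates, with Benjamini-Hochberg adjustment over all probe sets tested and a threshold of 0.05; the fit was checked on simulated data. Each gene is named by the probe set that carries its symbol alone and has the highest mean log2 intensity (932 probe sets with several symbols and 9211 with none were not named). Named genes were the members, the 3 most alike genes of each over all arrays (within groups only the first is printed), and from 4 lists the called genes and 10 others. Members and lists were chosen with earlier results of these data known. Alternatives were other filters, normalisations, probe set rules, array weights, a replicate block and each array left out. The 2 arrays highest for pancreatic acinar genes were also left out together. B and T cell markers as a covariate were added after seeing the data.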

Additional observations from a re-analysis of the deposited data

How the results depend on the processing

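No member passed in any comparison, and the count of 0 stood under no filter, a filter on the mean, trended and robust moderation, centring on medians, repeated quantile normalisation, a floor of 100, the mean of all probe sets of a gene, and fits to the groups compared alone. Array weights gave counts of 5 and 2 for the diet in non pregnant and pregnant mice, 1 for pregnancy on the HF diet, 5 for the diet average and 1 for the pregnancy average. Requiring a 1.5-fold change and an unadjusted p under 0.05 gave 1, 2 and 2 for the 3 diet comparisons. Leaving out each array gave 0 to 3 for the diet average (3 without control pregnant mouse 2) and 0 to 0 elsewhere. Without the 2 arrays highest for pancreatic acinar genes the diet average count was 1, for Abhd5, lower on the HF diet. With the B and T cell covariate it was also 1, but for Plin4, higher on the HF diet. The cause was not tested.

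The replicate numbers are not stated to pair the mice. Over 30 same-numbered pairs the correlation of deviations ran from -0.75 to 0.67, with a median of -0.16, and was over 0.1 in 10. Values spread so widely in both directions cannot show or exclude a pairing. With the replicate block the members' count stayed at 0 in all 7 comparisons, and over all probe sets the calls went from 246 to 19 for the diet average and from 38 to 17 for the diet in pregnant mice. Cidea and Foxo1 were no longer called under the block (adjusted p = 0.0865 and 0.119), and kept their calls in 18 and 11 of 31 alternatives; Fabp5 kept both of its calls in all.

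Some differences changed sign, and not all of them were small. The largest in the main fit were those of Fitm2 (-0.38) and Cidec (-0.32) for the diet in non pregnant mice. With the B and T cell covariate, Cidec, Fitm2 and G0s2 stood at 0.18, 0.04 and 0.35 for the diet in non pregnant mice, Fitm2 and G0s2 at 0.08 and 0.11 in pregnant mice, Cidec, Fitm2 and G0s2 at 0.30, 0.06 and 0.23 for the diet average, and Plin4 at -0.11 for pregnancy on the HF diet. With array weights G0s2 stood at 0.23 for the diet in non pregnant mice and 0.01 for the diet average, and Plin4, Fitm2 and G0s2 at -0.28, -0.07 and -0.11 for pregnancy on the HF diet. Repeated quantile normalisation put G0s2 (diet in pregnant mice) and Plin4 (pregnancy on the HF diet) at 0, and the mean of all probe sets put Abhd5 at 0.19 for pregnancy on the HF diet. With each array left out, values that crossed 0 ran, for the diet in non pregnant mice, from -0.04 to 0.32 (Plin4) and -0.19 to 0.18 (G0s2). In pregnant mice they ran from -0.31 to 0.10 (Fitm2) and -0.30 to 0.14 (G0s2), and for the diet average from -0.15 to 0.08 (Cidec) and -0.17 to 0.06 (G0s2). For pregnancy on the HF diet they ran from -0.19 to 0.17 (Plin4), -0.03 to 0.31 (Fitm2), -0.30 to 0.09 (Lipe) and -0.31 to 0.12 (Abhd5).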
